A study of Mus musculus with 2 samples.

Results

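The genes of the Notch pathway described here were 3 receptors (*Notch1*, *Notch2* and *Notch3*), 3 ligands (*Jag1*, *Jag2* and *Dll1*), the modifier *Lfng* and 3 effectors (*Hes1*, *Hes5* and *Hey1*). They were found as all probe sets whose platform annotation holds 1 symbol, that of one of these genes. All 10 genes were present, with 17 probe sets among 22626 that are not controls, and 12393 genes were measured in all. RNA of whole cochleae from mouse embryos at E18.5, dissected with the otic capsule and without vestibular tissue, was hybridized to Affymetrix MOE430A arrays, and 1 column of values was deposited per title. Each column is called an array here, although the sources used do not say whether it is 1 array or a summary of several. The embryos came from matings of heterozygous mice on a C57BL/6J background, and the question of the study was which cochlear genes depend on insulin-like growth factor I. The labels oppose each other on the genotype. The array titled +/+ is called *Igf-1* -/- in its source name, and the array titled -/- is called *Igf-1* +/+ there. Both are therefore named by their titles only, levels are given first for titled +/+ and then for titled -/-, every difference is that of titled -/- less titled +/+, and all signs turn if the source names hold. By the labels each array holds RNA of 8 cochleae, while the methods describe 3 independent pools per genotype, each from 2 embryos, so each column averages several ears.

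Notch signalling passes between touching cells. A ligand of the Jagged or Delta family on one cell binds a Notch receptor on its neighbour, the receptor is cut by an ADAM protease and then by gamma-secretase, and the freed intracellular part enters the nucleus, binds RBPJ and switches on genes of the HES and HEY repressors. In the organ of Corti this exchange first marks the prosensory domain and then sorts its cells, by lateral inhibition, into hair cells and supporting cells. Fringe enzymes such as Lunatic fringe, the product of *Lfng*, add sugars to the receptor and change which ligands it answers to.

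RBPJ binds the letters GTGGGAA, and the promoters of the genes were searched for them on both strands. The windows were those of RefSeq on GRCm38.p6, from 250 bases before to 50 after an annotated start of transcription, and 8 of the 10 genes had at least 1. *Hes1* and *Hey1* had no window and were not searched. Of 32851 windows of 300 bases, 6.38% held the motif at least once and 0.256% at least 2 times. *Hes5*, an effector, held it 2 times, in opposite orientations, and *Lfng* held it once. These 3 sites are all the matches found in the members, and both genes are known to respond to Notch in other tissues. They are shown with the motif or its reverse complement in capitals.
*Hes5*, chr4:154960686-154960714, plus strand, motif 226 bases before the start: gggcgagcgcgTTCCCACagcccggacat
*Hes5*, chr4:154960829-154960857, plus strand, motif 83 bases before the start: ggccgccgagtGTGGGAAcggccgcggcg
*Lfng*, chr5:140607221-140607249, plus strand, motif 109 bases before the start: ccgtatcccacGTGGGAAggagagatctc
In the RefSeq annotation of this build the *Hes5* gene reaches back to 154960626, so both of its sites lie inside the gene as annotated, before the start that its window uses. The *Lfng* site lies upstream of that gene, which begins at 140607341. A match describes the letters and is not evidence of binding. The windows of *Notch1*, *Notch2*, *Notch3*, *Jag1*, *Jag2* and *Dll1* held no match.

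No Notch pathway gene passed a difference of 1 log2 unit when each was read from its probe set of the highest mean level. Such differences were found for 5.54% of all genes above 1 and 4.07% below -1. The median over the 10 genes was 0.10, beside 0.0028 over all genes. *Notch3*, *Jag1*, *Jag2*, *Dll1*, *Hes5* and *Hey1* were higher on the array titled -/- (6 of 10, beside 50.5% of all genes), and *Notch1*, *Notch2*, *Lfng* and *Hes1* were lower. *Jag2* alone was above 0.5, where 12% of all genes lay, and no gene was below -0.5, where 8.60% lay. Over probe sets, 12 of 17 were higher, 4 were lower and 1, of *Lfng*, was listed at 0 on both arrays, beside a median of 0 over all probe sets by the centring. A probe set of *Jag1* was above 1 (1 of 17, beside 6.27% of all probe sets) and none was below -1 (beside 5.04%). Each title has a single column of values, so no test was made and none of these differences can be set against the spread between animals.

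What the arrays do allow is to compare each difference with those of other probe sets at the same level, and with the other probe set of the same gene. Probe sets were placed in 3 bands of equal number by mean level. In the highest band, from 7.68 upwards, the 5th to 95th percentile of all differences ran from -0.24 to 0.27. In the middle band, from 5.06 to 7.68, it ran from -0.47 to 0.57, and in the lowest band from -1.88 to 1.98. The pooled SD between probe sets of 1 gene was 0.10, 0.27 and 1.17 in the same order. Of the 17 probe sets, 3 lay in the highest band, 9 in the middle and 5 in the lowest. Those of *Jag2* (higher level) and *Notch2* (higher level) were the 2 outside the range of their band, and the same 2 were outside when 10 bands were used, where by construction about 10% of all probe sets lie outside.

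**Figure D1:**
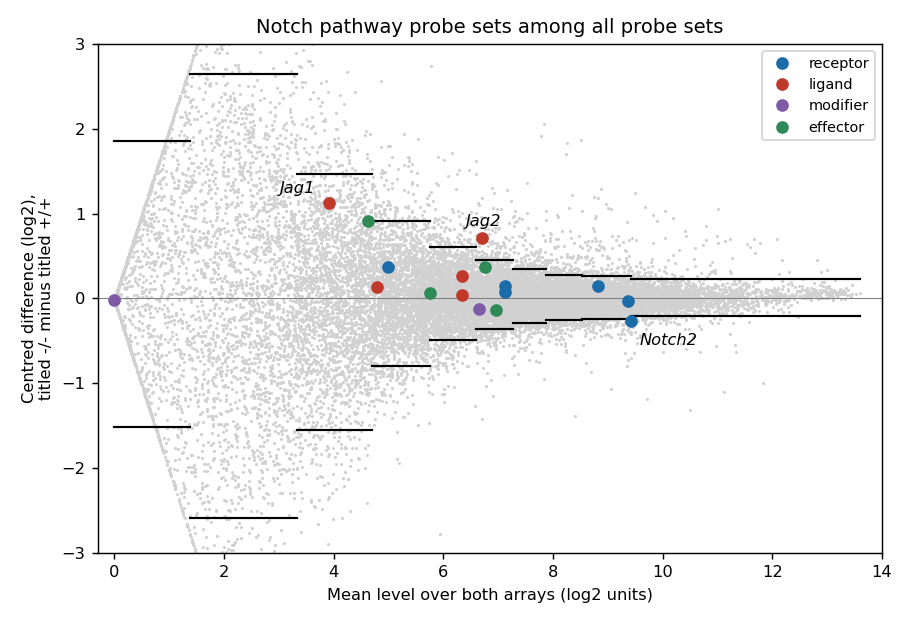
Centred log2 difference (titled -/- minus titled +/+) against the mean of both log2 levels, with 1 grey point per probe set, the 17 Notch pathway probe sets coloured by role and black lines at the 5th and 95th percentile in 10 bands of level. *Jag2* at 0.71 and *Notch2* at -0.27 lie outside the lines, *Jag1* at 1.12 lies inside the wide range of its low level, and 136 probe sets beyond 3 in size are not drawn.

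The receptors were read well above the floor of the arrays. *Notch1*, the receptor known to act in the developing sensory epithelium, was at a log2 level of 9.38 (titled +/+) and 9.37 (titled -/-) for its stronger probe set, 1418634_at. Its other probe set, 1418633_at, was at 7.08 and 7.17 in the same order. The centred differences were -0.034 and 0.075, so the arrays barely differed and the 2 readings had opposite signs. *Notch3*, known from vascular smooth muscle and pericytes, was at 8.73 and 8.90 for 1421965_s_at and at 7.03 and 7.20 for 1421964_at. Both probe sets differed by 0.15, a ratio of 1.11, and both were higher on the array titled -/-. This gene had the closest readings of the 7 genes with more than 1 probe set.

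*Notch2* was the receptor with the larger difference. Its stronger probe set, 1455556_at, was at 9.55 and 9.31, a centred difference of -0.27 and a ratio of 0.832. Its weaker one, 1451889_at, was at 4.79 and 5.19, a difference of 0.38 in the other direction. The first value lay just below the 5th percentile of its band, -0.24, and the second well inside the range of the lowest band. The 2 readings of *Notch2* were 0.64 apart, and the median of this gap over 1648 genes whose weaker probe set lay in the lowest band was 0.74. As a mean over both probe sets the difference was 0.055, with the sign turned.

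**Figure D2:**
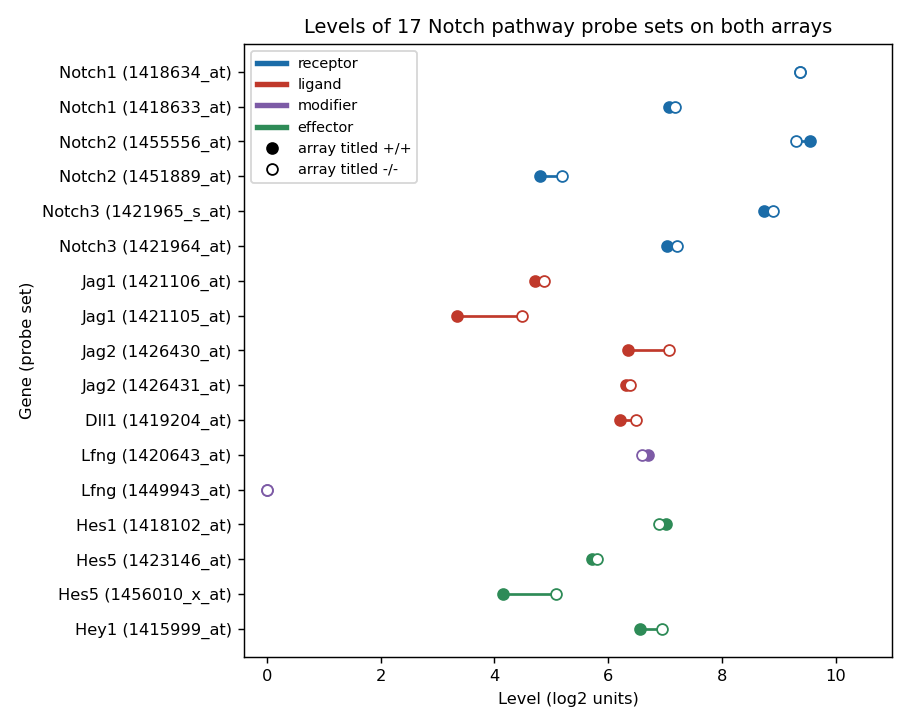
Log2 level of each of the 17 probe sets on the array titled +/+ (filled) and the array titled -/- (open), joined by a line and coloured by role, with 1 value per array. The receptors show short lines at levels up to 9.55, *Jag2*, *Jag1* and *Hes5* each have 1 long and 1 short line, and 1 probe set of *Lfng* sits at 0 on both arrays.

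All 3 ligands were higher on the array titled -/- (beside 50.5% of all genes), in 5 of 5 probe sets, but by sizes that depended on the probe set. By the centring, the median over all probe sets was 0. Of the ligands outside the members, *Dll3* differed by -0.26, and *Dll4* by 0.24 and -0.87 for its stronger and weaker probe set. *Jag2*, a ligand made by young hair cells, was at 6.34 (titled +/+) and 7.07 (titled -/-) for 1426430_at. For 1426431_at it was at 6.31 and 6.38. The first gives a centred difference of 0.71, a ratio of 1.63, and the second a difference of 0.043. A difference above 0.5 was found for 6.84% of probe sets in the middle band, and *Jag2* was the one gene of the pathway members to pass it. Its 2 readings were 0.67 apart, more than the 90th percentile of 0.51 over 1948 genes whose weaker probe set lay in the middle band, where the median gap was 0.18. So the data hold a larger and a near-zero value for the same gene, and the mean of both is 0.38.

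*Dll1*, the Delta ligand also made by young hair cells, has 1 probe set, 1419204_at, which was at 6.20 and 6.49. Its difference was 0.26, inside the range of the middle band. *Jag1*, the ligand that marks the prosensory domain and later the supporting cells, was at 4.72 and 4.87 for 1421106_at, a difference of 0.14. The other probe set, 1421105_at, was at 3.34 and 4.49, a difference of 1.12. In the lowest band, where both lie, 17.6% of probe sets were above 1, so this size is common there. Once low values were raised to the 25th percentile, the larger difference became 0.38.

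**Figure D3:**
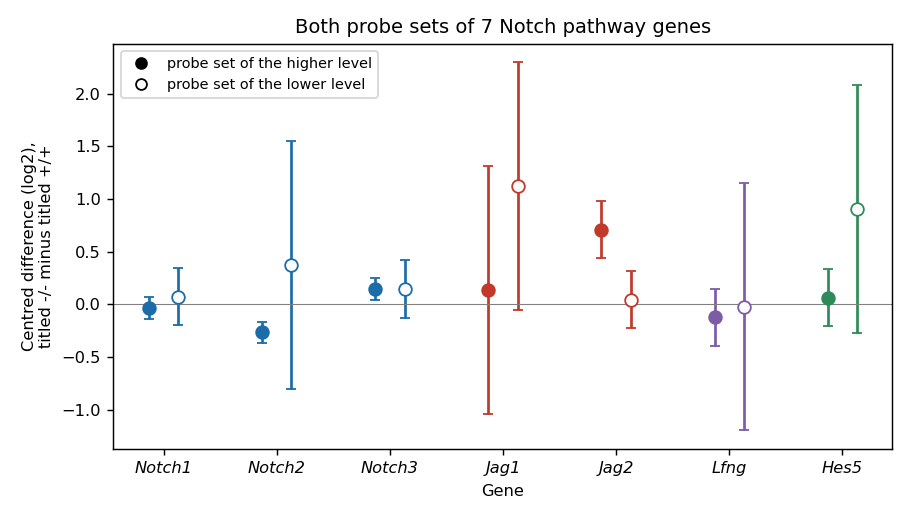
Centred log2 difference (titled -/- minus titled +/+) for both probe sets of the 7 genes with more than 1, the one of the higher level filled and the other open. Bars are the pooled SD between probe sets of a gene in that band of levels (0.10, 0.27 or 1.17), and the bars of the 2 *Jag2* probe sets do not overlap while those of *Notch3* share a centre.

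*Lfng*, which in the cochlea is known from supporting cells and the epithelium beside them, was at 6.69 (titled +/+) and 6.59 (titled -/-) for 1420643_at, a difference of -0.12. Its other probe set, 1449943_at, was listed at 0 on both arrays and carries no information on a difference. *Lfng* was thus read from 1 probe set, with a value inside the range of its band.

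The effectors are the transcripts that Notch activity raises. *Hes1*, a HES repressor of wide expression, was at 7.02 and 6.89, a difference of -0.14. *Hes5*, made in supporting cells next to hair cells and the gene with a pair of RBPJ motifs above, was at 5.72 and 5.81 for 1423146_at, a difference of 0.063. Its probe set 1456010_x_at was at 4.15 and 5.08, a difference of 0.91. Probe sets ending in _x_at can share probes with other transcripts. *Hey1*, an effector of the prosensory domain and also of blood vessels, was at 6.57 and 6.96, a difference of 0.37 and a ratio of 1.29. It lay inside the range of the middle band, so the 3 effectors gave 2 small values of opposite sign and 1 larger value, and none of their strongest probe sets stood apart from the others at their level.

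Of 58 other genes of the pathway, 51 were measured. None differed by more than 1 when read from its probe set of the highest level. Over all 85 probe sets of these genes, 1 was above 1 (beside 6.27% of all probe sets) and 3 were below -1 (beside 5.04%), at 1.21 (*Kat2a*), -1.12 (*Adam10*), -1.56 (*Numb*) and -1.84 (*Neurl1a*), all in the lowest band and each a weaker probe set of its gene. By gene, on titled -/-, 26 were higher and 24 were lower, *Hes2* was listed at 0 on both arrays, and the median was 0.0055. The 4 genes *Dlk1*, *Dner*, *Nrarp* and *Adam17* (4 of 51) lay outside the range of their band, where by construction about 10% of all probe sets lie outside. Among further ligands and receptors, *Dll4*, an endothelial ligand, differed by 0.24, *Dll3* by -0.26 and the endothelial receptor *Notch4* by 0.14. The weaker probe set of *Dll4* differed by -0.87 and that of *Notch4* by 0.59, both in the lowest band. Among the ligand-like genes, *Dlk1*, a membrane protein with Delta-like repeats, was at 11.20 and 11.87, a difference of 0.65. *Dner*, which is made by neurons, was at 8.00 and 8.51, a difference of 0.49, and its second probe set gave 0.41. Both genes lay outside the range of the highest band.

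The steps between ligand and target genes were read in the same way. For the 6 measured genes of receptor cleavage the differences ran from -0.31 (*Adam17*) to 0.073 by the strongest probe set, with *Psenen*, a subunit of gamma-secretase, at 0.013 and the protease gene *Adam10* at -0.083. The weaker probe sets of *Adam10* gave -0.18 and -1.12. The 3 probe sets of *Adam17* gave -0.31, 0.16 and 0.21, so its sign depended on the probe set. For the nuclear complex, *Rbpj* differed by -0.13 and 0.013 over its 2 probe sets, *Snw1* by 0.055 and -0.042, and *Kat2a* by -0.060, -0.041 and 1.21 over 3, while *Maml2* went from a listed 0 (titled +/+) to 0.98 (titled -/-), near the floor. By the strongest probe set the 10 corepressors ran from -0.18 to 0.23, with *Ctbp1* at 0.020 and *Hdac1* at 0.038. Among enzymes that modify the receptor with sugars, *Rfng* differed by 0.22 for its stronger and -0.0023 for its weaker probe set, and *Poglut1* by -0.043.

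Genes that respond to or restrain Notch were also compared. *Nrarp*, a target gene whose product feeds back on the receptor, was at 7.59 and 7.89 for its stronger probe set and at 6.46 and 6.82 for the other. The differences of 0.28 and 0.34 had the same sign, and the first lay just above the range of the highest band. The mean level of that probe set, 7.74, was close to the lower edge of the band, 7.68. The second difference lay inside the range of the middle band. *Dtx1*, a ubiquitin ligase of the pathway that can be a Notch target, differed by 0.40, inside the range of the middle band, *Dtx3* by 0.086 and *Numb*, an inhibitor, by -0.095, with -1.56 for its weaker probe set in the lowest band. The further effectors *Hes6* and *Heyl* differed by 0.044 and 0.21 for their strongest probe sets by 0.33 for the weaker one of *Hes6*, and by 0.014 and 0.53 for the weaker ones of *Heyl*. *Hes7* was at 0.64 (titled +/+) with a listed 0 (titled -/-), and *Mib1*, which helps ligands into the cell, was at 4.98 and 4.07, both in the lowest band.

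**Figure D4:**
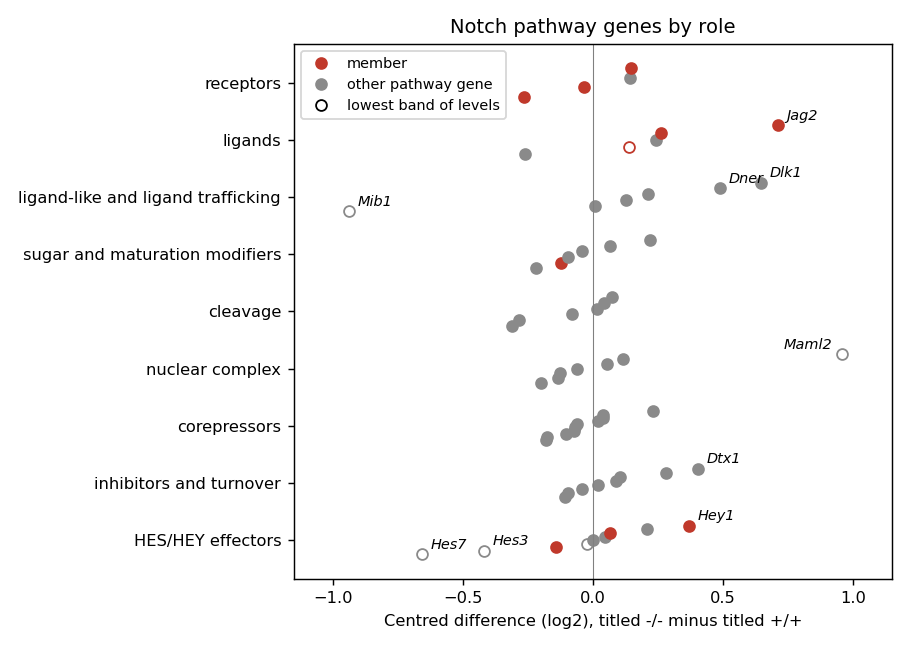
Centred log2 difference (titled -/- minus titled +/+) of 61 Notch pathway genes by role, with 1 point per gene from its probe set of the highest level, members in red and the other genes in grey. Open points lie in the lowest band of levels, no gene passes 1 in either direction, and *Jag2*, *Dlk1*, *Dner*, *Dtx1* and *Hey1* are the named points furthest to the right among filled ones.

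The labelled tissue was checked against marker genes, of which the hair cell list had 11 of 12 measured and the supporting cell list 11 of 11, with none listed at 0 on either array. The hair cell markers *Espn* (0.097 titled +/+, 0.995 titled -/-) and *Tmc1* (1.27 and 3.23) were near the floor, with differences of 0.88 and 1.94. The summed linear levels of the hair cell list were 1892 and 1838 (titled +/+, then titled -/-), with a median of -0.083. In it, 5 genes had a positive difference and 6 a negative one. For supporting cells the sums were 5082 and 5387, with a median of -0.036, and 4 differences were positive and 7 negative. The strongest gene of that list, *Fabp7*, at 10.535 and 10.853, also had its largest positive difference, 0.30, and so weighs heavily in the sums. The largest negative differences were bigger, at -0.75 for *Prox1*, in the lowest band, and -0.48 for *Gata3*, just below the range of the middle band. *Fabp7* is counted again in the list of hindbrain and central glia. Several Notch genes are also used outside the sensory epithelium. Markers of such cell types, and of tissues beyond the cochlea, were compared with the 50.5% of all genes that were higher on the array titled -/-. Endothelial markers were higher on the array titled -/- for 9 of 11 genes, with sums of 2423 and 2596 and a median of 0.14. Mural markers were higher for 5 of 9, with sums of 4252 and 4919 and a median of 0.45. The mural gene with the largest difference, *Cnn1*, at 0.45 and 3.45, was near the floor. The mural genes *Pdgfrb*, *Rgs5*, *Cspg4* and *Kcnj8* were slightly lower, with differences from -0.11 to -0.019. Neuronal markers were higher for 5 of 9, with sums of 6223 and 6968. Markers of hindbrain and central glia were higher for 9 of 9, with sums of 2405 and 3608, and those of skeletal muscle for 13 of 13, with sums of 17555 and 28928. Markers of lung epithelium were lower for 9 of 9, with sums of 2767 and 358. The strongest of them, *Sftpc*, was at 10.94 and 7.47. Lung is not part of the labelled tissue. The paper also arrayed lung RNA of the same mice or their siblings, and the origin of these transcripts was not tested. Schwann cell markers were lower for 4 of 5, with sums of 3287 and 3307 and a median of -0.22. Erythroid markers were lower for 5 of 6, with sums of 358 and 242. All sums were taken before centring and lean on the strongest genes, while higher and lower were counted after it. The erythroid gene *Epb42*, at 0 on titled +/+, was the only marker of these lists at 0 on either array. Which part these tissues had in the values of the Notch genes was not tested, and in RNA of a whole organ fewer cells of a type and less RNA per cell cannot be told apart. *Igf1*, the disrupted gene, was lower on the array titled -/- in 3 of 3 probe sets, the direction of the titles. The levels were 11.42 and 11.03, 8.11 and 7.37, and 7.78 and 7.23, with differences of -0.42, -0.75 and -0.58, each below the range of its band. By qRT-PCR, a different measure, the paper found *Igf1* absent from the null cochlea. All 3 probe sets stayed far above the floor on both arrays, so neither array showed such an absence. Where the probe sets lie relative to the disruption was not examined, and these values do not settle the conflict of the labels.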

How the data were processed

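The authors hybridized biotin-labelled cRNA of E18.5 cochleae to MOE430A arrays. What they deposited is a log2 level for each probe set, which ran from 0 to 13.64 outside controls, low ones being given as exactly 0. By the methods, multi-mgMOS gave the levels the study went on to use, after a trial of MAS5.0 and RMA, but they do not tie the deposited table to one of them. The sources used here do not say how the arrays were scaled to each other, or whether a column is 1 array or a summary. The base of 2 was read from the range of the values. Depth does not apply to arrays, and their number, 1 column per title, limits the precision.

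Of 22690 probe sets, 64 controls were left out, and 20380 of the rest have 1 symbol, 691 several and 1555 none. Symbols were updated through gene identifiers to the RefSeq table of GRCm38.p6, which 20351 probe sets matched. Differences were centred on their median, 0.022. A gene was read from its probe set of the highest mean level. Levels of different probe sets were not compared as amounts of RNA. The limit of 1 log2 unit is that of the methods, whose second criterion, a probability that needs uncertainties of the levels, was not applied here.

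All members are named with every probe set. Of other pathway genes, those named are the 2 of the highest level per role and any past 1, or past 0.4 at a level above the median of genes, 7.10. *Adam17*, *Rbpj*, *Maml2*, *Nrarp*, *Hes2*, *Hes7*, *Mib1* and *Neurl1a* were added after their values were seen. *Cntn1*, also named by the rule, differed by 0.13 and 0.044 for its 2 probe sets. The members and lists were chosen with earlier results of these data known. With 2 arrays, no likeness of pattern between genes was ranked. Alternatives were no centring, quantile normalization, loess (span 0.3), low values raised to the 25th percentile, the mean of all probe sets, removal of _x_at and _s_at probe sets, a level filter and a limit of 0.5. The use of 10 bands of level in place of 3 was chosen after the data had been examined. The differences with centring, without centring, with quantile normalization, with loess and with raised low values were run on simulated data with known changes. The other steps were not run on simulated data. Python 3.11.15, numpy 2.4.6, pandas 2.3.3, statsmodels 0.14.6 and matplotlib 3.10.9 were used.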

Additional observations from a re-analysis of the deposited data

How the results depend on the processing

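Read as genes, no member and no other pathway gene passed 1 log2 unit under any of the 7 alternatives that kept this limit. At 0.5 in place of 1, 1 member (*Jag2*) and 4 other pathway genes (*Dlk1*, *Maml2*, *Mib1* and *Hes7*) passed. Of all genes, 12% were above 0.5 and 8.60% below -0.5. *Maml2*, *Mib1* and *Hes7* lie in the lowest band of levels. Of the members, 6 were higher and 4 lower under no centring, quantile normalization, loess, raised low values and without probe sets ending in _x_at or _s_at. With the mean of all probe sets of a gene, 8 were higher and 2 lower, since *Notch1* and *Notch2* turned sign, at 0.020 and 0.055. Only *Notch1*, *Notch2* and *Notch3* lie above the median level of genes, of which 1 was higher and 2 were lower. The mean of all probe sets also moved *Jag1* to 0.63, *Jag2* to 0.38 and *Hes5* to 0.49. The stronger *Jag2* probe set stayed between 0.68 and 0.73 and *Hey1* between 0.34 and 0.39. With low values raised, the SD between probe sets in the lowest band fell from 1.17 to 0.29, by construction, since most of these values then lie at the floor. No paired analysis was possible because each title has 1 deposited column of values, and none could be left out.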
